A study of Mus musculus with 6 samples.

Results

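The circadian clock genes described here are 10 genes chosen by name: Arntl (also called Bmal1), Clock, Per1, Per2, Per3, Cry1, Cry2, Nr1d1, Nr1d2 and Dbp. All 10 were found among the 54838 gene identifiers of the count files, and all 10 passed the filter on low counts that left 15998 genes for testing. The cells were mouse intestinal cells sorted for high GFP from Lgr5-eGFP-IRES-CreERT2 animals (strain label B6.129P2-Lgr5tm1(cre/ERT2)Cle/J), in which GFP and a tamoxifen-dependent Cre are expressed from the locus of the stem cell gene Lgr5. The treated cultures received INT-777 at 30 µM and the controls received DMSO, the solvent; INT-777 is an agonist of the bile acid receptor TGR5. There were 3 libraries in each group, 1 from each of 3 days, and on each day the sorted cells of 4 pooled mice were divided between both treatments. Both groups carried the same Lgr5 allele, were embedded in Matrigel drops, were cultured with JAG-1 (1 µM) and the GSK3 inhibitor CHIR99021 (3 µM), and were treated 4 h after plating. The sample labels give 12 h of treatment and the series text gives 16 h; the sources used here give no age or sex of the mice and no clock time of the sorts.

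The mammalian circadian clock is a transcriptional loop that runs inside single cells. CLOCK and BMAL1 (the product of Arntl) bind E-box elements together and switch on the Per and Cry genes, whose proteins return to the nucleus and block CLOCK and BMAL1. The same pair switches on Nr1d1 and Nr1d2, which encode the REV-ERB repressors; these act at ROR elements, repress Arntl, and so tie both loops together. Dbp encodes an activator that binds D-box elements and is one of the most strongly rhythmic outputs of the loop in many tissues. In tissues with a running clock, Arntl peaks at the opposite time of day from Nr1d1 and Dbp. In the intestine the clock is known for its bearing on cell division, on nutrient uptake and on the renewal of the epithelium.

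The promoter windows of 4 members are shown because the results below turn on these genes. Each runs from 250 bases before to 50 bases after a transcription start site, 5′ to 3′ on the gene's own strand, and comes from RefSeq on GRCm38.p6. Capitals mark any match to an E-box (CACGTG), a ROR element core (TAGGTCA or TGGGTCA), a D-box (TTATGTAA, TTACGTAA or TTATGCAA) or a CREB element (TGACGTCA), searched on both strands; no matches overlapped in these windows. The windows lie at chr11:98775328-98775627 on the minus strand for Nr1d1, at chr10:85185005-85185304 on the minus strand for Cry1, at chr7:113207261-113207560 on the plus strand for Arntl and at chr4:151044616-151044915 on the minus strand for Per3.
Nr1d1: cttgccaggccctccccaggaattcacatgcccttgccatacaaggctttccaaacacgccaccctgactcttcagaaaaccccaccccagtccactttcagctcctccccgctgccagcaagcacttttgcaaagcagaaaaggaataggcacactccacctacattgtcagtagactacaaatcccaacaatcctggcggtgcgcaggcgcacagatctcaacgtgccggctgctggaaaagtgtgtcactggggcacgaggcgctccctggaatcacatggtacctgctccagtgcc
Cry1: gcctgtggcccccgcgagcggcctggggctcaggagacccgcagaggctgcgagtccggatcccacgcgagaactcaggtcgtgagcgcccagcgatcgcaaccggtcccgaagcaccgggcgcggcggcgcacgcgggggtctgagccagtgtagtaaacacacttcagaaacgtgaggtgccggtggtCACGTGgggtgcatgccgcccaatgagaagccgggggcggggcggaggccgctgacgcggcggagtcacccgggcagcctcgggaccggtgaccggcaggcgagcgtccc
Arntl: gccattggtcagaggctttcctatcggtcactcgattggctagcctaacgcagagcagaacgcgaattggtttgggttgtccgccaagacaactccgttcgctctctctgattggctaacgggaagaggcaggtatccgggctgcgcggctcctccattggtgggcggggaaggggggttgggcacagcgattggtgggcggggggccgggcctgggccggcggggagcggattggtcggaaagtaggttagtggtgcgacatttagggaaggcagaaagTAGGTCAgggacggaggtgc
Per3: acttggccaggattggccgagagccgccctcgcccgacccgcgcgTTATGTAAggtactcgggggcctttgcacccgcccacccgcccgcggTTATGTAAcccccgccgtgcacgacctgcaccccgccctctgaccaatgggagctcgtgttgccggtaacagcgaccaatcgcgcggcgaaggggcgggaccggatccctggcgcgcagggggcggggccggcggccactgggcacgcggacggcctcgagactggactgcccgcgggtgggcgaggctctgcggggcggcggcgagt
Windows were found for 9 of the 10 members, 13 windows in all; Per2 had none. An E-box stood 60 bases before the start site of Cry1, and another 166 bases before that of Per1, so 2 members held one; 7.15% of 32851 windows of the same length in the table did. A ROR element core stood 31 bases after the start site in 1 of the windows of Arntl, against 6.45% of all windows. A D-box stood 205 and 158 bases before the start site of Per3 and 24 bases before that of Per1, against 1.78% of all windows. No member held the CREB element, which 1.79% of all windows held. These percentages count windows, whereas members are counted as genes, some with more than 1 window. The Nr1d1 window held none of these letters and is therefore all in lower case; nothing about binding follows from a match or from its absence.

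Each library had between 45682340 and 47905087 read pairs counted on genes, with 23051 to 23789 genes detected, so depth hardly differed between libraries. Member counts ran from 37 for Dbp to 7460 for Clock. Levels are given as CPM, counts scaled to 1000000 counted on genes after scaling by TMM factors of 0.993 to 1.01. All 10 stem cell markers, Lgr5 and Olfm4 among them, were detected in every library, and their summed level was 1915 to 2389 CPM with INT-777 and 2314 to 2758 CPM with DMSO. The day 3 libraries stood apart from the others. Their stem cell marker sum was 1915 CPM with INT-777 and 2314 CPM with DMSO, against 2365 to 2758 CPM on days 1 and 2. The summed level of 12 goblet cell markers was 12635 CPM with INT-777 and 28500.5 CPM with DMSO on day 3, against 2957 to 5734 CPM on days 1 and 2. That of 8 enteroendocrine markers was 2063 and 2613 CPM on day 3, against 543 to 594 CPM on days 1 and 2. Of 16 immune markers 2 were detected in every library, with sums of 9.99 and 10.3 CPM on day 3 and 3.19 to 4.13 CPM on days 1 and 2; of the tuft cell markers Il25 was at 0 throughout. The RNA integrity number was 9.0 (INT-777) and 8.7 (DMSO) on day 3, against 9.2 to 9.6 on days 1 and 2. In bulk RNA, fewer cells of a type and less RNA per cell cannot be told apart.

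The members stood in the same order of level per kilobase of exon in both groups. Cry1 was highest, with 12.8 ± 0.390 CPM per kilobase in INT-777 cultures and 11.0 ± 0.881 in DMSO cultures (SD, n = 3 each). Clock followed with 10.8 ± 0.763 and 10.4 ± 0.553 CPM per kilobase, and then Per1, Nr1d1, Nr1d2, Arntl, Per2, Cry2 and Per3. Dbp was lowest, with 0.300 ± 0.0373 CPM per kilobase in INT-777 cultures and 0.388 ± 0.0665 in DMSO cultures. In INT-777 cultures the 3 libraries of each member did not overlap those of its neighbours in this order. In DMSO cultures Cry1 overlapped Clock, Nr1d1 overlapped Nr1d2 and Nr1d2 overlapped Arntl, and those neighbours did not differ beyond their spread. On GRCm38, Clock lies at chr5:76209868-76304792 (minus strand), Per1 at chr11:69095217-69109960 (plus), Per2 at chr1:91415982-91459324 (minus), Cry2 at chr2:92403646-92434043 (minus) and Nr1d2 at chr14:18204054-18239127 (minus).

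**Figure D1:**
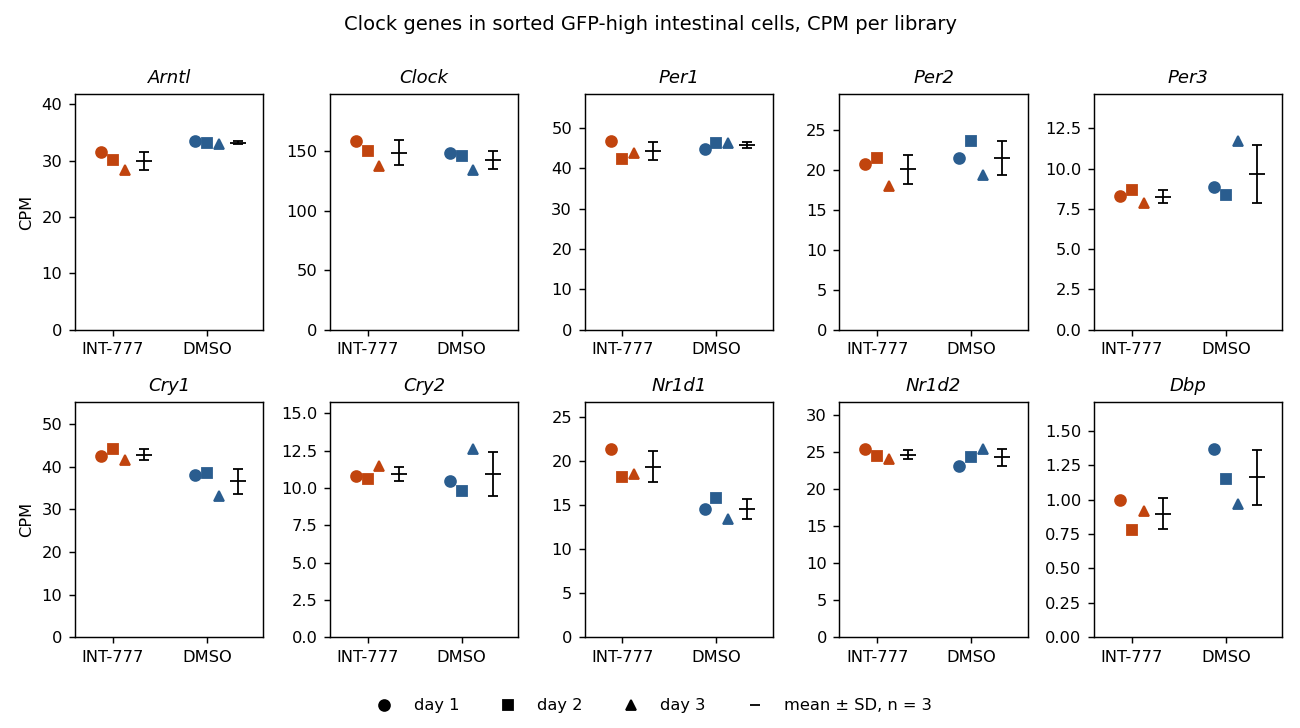
CPM (y axis, from 0, one scale per gene) of the 10 clock genes in each library, INT-777 left and DMSO right; symbols give the day and black bars the mean ± SD of 3 libraries. Nr1d1 and Cry1 lay higher and Arntl lower in all 3 INT-777 libraries than in any DMSO library, and the other 7 genes overlapped. Of all tested genes 24.5% did not overlap between the groups.

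The study asked which genes INT-777 changes in these cells. Of the clock genes, Nr1d1 and Cry1 were higher in INT-777 cultures, by 1.33-fold and 1.17-fold, in the comparison of cultures from the same day; the other 8 genes were not called. Neither gene passed the threshold when the day was left out of the fit. In that fit, edgeR's quasi-likelihood test with Benjamini-Hochberg adjustment over all genes, 0 of 10 members had an adjusted p under 0.05, where 1.45% of all tested genes did (232 genes; 0.688% higher and 0.763% lower). Unadjusted p-values were under 0.05 for 3 members (Nr1d1, Cry1 and Arntl), as for 16.4% of all genes. DESeq2 called 1 of the members, Nr1d1 (adjusted p = 0.0168), and 4.99% of all genes. With the day as a replicate block, 2 members were called, both higher; 21.3% of all genes were called in that fit, 11.1% higher and 10.3% lower, so the members' share was near that of all genes. The members' log2 changes had a median of -0.02 without the block, against 0.003 for all genes tested, and their median size was 0.12, against 0.13 for all genes.

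Nr1d1 (ENSMUSG00000020889, chr11:98767932-98775333 on GRCm38, minus strand) encodes REV-ERBα, the repressor of Arntl. Its level was 21.3, 18.2 and 18.4 CPM in INT-777 cultures of days 1, 2 and 3, against 14.5, 15.7 and 13.4 CPM in DMSO cultures. All 3 INT-777 libraries were above all 3 DMSO libraries, by 1.47-fold, 1.15-fold and 1.38-fold within the days. The log2 change was 0.41 ± 0.0943 (SE) without the block, with an edgeR adjusted p of 0.0971, and 0.41 ± 0.0766 with it (95% interval 0.25 to 0.57, edgeR adjusted p = 0.00141). With the block, this call was kept without any one library. Of the exon bases of Nr1d1, 8.55% (263 bases) are shared with Thra on the opposite strand. The counts were made without strand, and pairs on shared bases were counted for neither gene. The paralogue of Nr1d1, Nr1d2 (REV-ERBβ), was not called. Nr1d2 had 25.4, 24.5 and 24.1 CPM with INT-777, against 23.1, 24.3 and 25.4 CPM with DMSO. Its log2 change was 0.02 (95% interval -0.11 to 0.16 with the block, edgeR adjusted p = 0.839); the change of Nr1d1 against that of Nr1d2 was not tested.

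Arntl (ENSMUSG00000055116, chr7:113207465-113314126, plus strand) was lower in each INT-777 culture than in any DMSO culture. It had 31.5, 30.2 and 28.3 CPM in INT-777 cultures of days 1, 2 and 3, against 33.4, 33.2 and 33.0 CPM in DMSO cultures. The log2 change was -0.15 ± 0.0554 with the block (95% interval -0.27 to -0.03), with an edgeR adjusted p of 0.0727, and -0.15 without it (edgeR adjusted p = 0.270), so it was not called. Clock, which encodes the partner of BMAL1, had 158, 150 and 137 CPM in INT-777 cultures and 148, 146 and 134 CPM in DMSO cultures. It was higher with INT-777 on each day, by a log2 change of 0.06 (95% interval -0.02 to 0.14 with the block), and the groups overlapped.

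Among the repressors, Cry1 (ENSMUSG00000020038, chr10:85131700-85185064, minus strand) had 42.6, 44.2 and 41.6 CPM in INT-777 cultures, against 38.0, 38.6 and 33.2 CPM in DMSO cultures. The groups did not overlap, and the within-day ratios were 1.12, 1.14 and 1.25. Its log2 change was 0.22 ± 0.0704 without the block (edgeR adjusted p = 0.187) and 0.23 ± 0.0533 with it (95% interval 0.11 to 0.34, edgeR adjusted p = 0.00682). With the block, the call was lost without the DMSO library of day 2 (edgeR adjusted p = 0.0777) and without both libraries of day 2 (edgeR adjusted p = 0.0604). Cry2, its paralogue, had 10.8, 10.6 and 11.5 CPM with INT-777 and 10.4, 9.77 and 12.6 CPM with DMSO. The log2 change of Cry2 was near 0, with a 95% interval of -0.17 to 0.18 with the block, and its sign turned with the scaling and the filter. Per1 had 46.7, 42.4 and 43.9 CPM with INT-777 and 44.8, 46.2 and 46.2 CPM with DMSO, higher on 1 day and lower on 2. Per2 had 20.8, 21.4 and 18.0 CPM with INT-777 and 21.4, 23.5 and 19.3 CPM with DMSO, lower on all 3 days, with a log2 change of -0.10 (95% interval -0.23 to 0.04 with the block). The groups of Per1 and of Per2 overlapped, and neither was called.

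Dbp (ENSMUSG00000059824, chr7:45705088-45710203, plus strand) rested on 47, 37 and 43 counts in INT-777 cultures and 63, 53 and 45 counts in DMSO cultures. These correspond to 0.996, 0.777 and 0.920 CPM with INT-777, against 1.37, 1.15 and 0.970 CPM with DMSO. The INT-777 culture was lower on each day, while the groups overlapped. The log2 change was -0.37 ± 0.217 with the block (95% interval -0.83 to 0.09, edgeR adjusted p = 0.260), the widest interval of the 10 genes, and 18.0% of its exon bases are shared with Sphk2 on the opposite strand. Per3 is described with the days below.

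Counted over the members, 3 were higher with INT-777 on all 3 days (Clock, Cry1 and Nr1d1), 3 were lower on all 3 days (Arntl, Per2 and Dbp) and 4 were mixed. Of all tested genes 26.8% were higher on all 3 days and 25.3% lower. The groups did not overlap for 3 members, against 24.5% of all tested genes. The ratio of the CPM of Arntl to that of Nr1d1 carries both genes' lengths and is compared only between libraries. It was 1.48, 1.66 and 1.54 in INT-777 cultures of days 1, 2 and 3, against 2.31, 2.11 and 2.47 in DMSO cultures. Since Arntl was lower and Nr1d1 higher without overlap, this ratio had to separate the groups. It adds no result beyond those of the 2 genes. With the block, 11 of 12 goblet markers were called lower with INT-777, and of 10 stem cell markers 6 were called lower and 2 higher. Also called lower were 4 of 8 Paneth, 4 of 8 enteroendocrine and 4 of 8 tested enterocyte markers. Called higher were 1 enterocyte marker and 1 of 5 tested tuft cell markers. Of all genes 10.3% were called lower and 11.1% higher in that fit. The part of these markers in the differences of the clock genes was not tested.

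**Figure D2:**
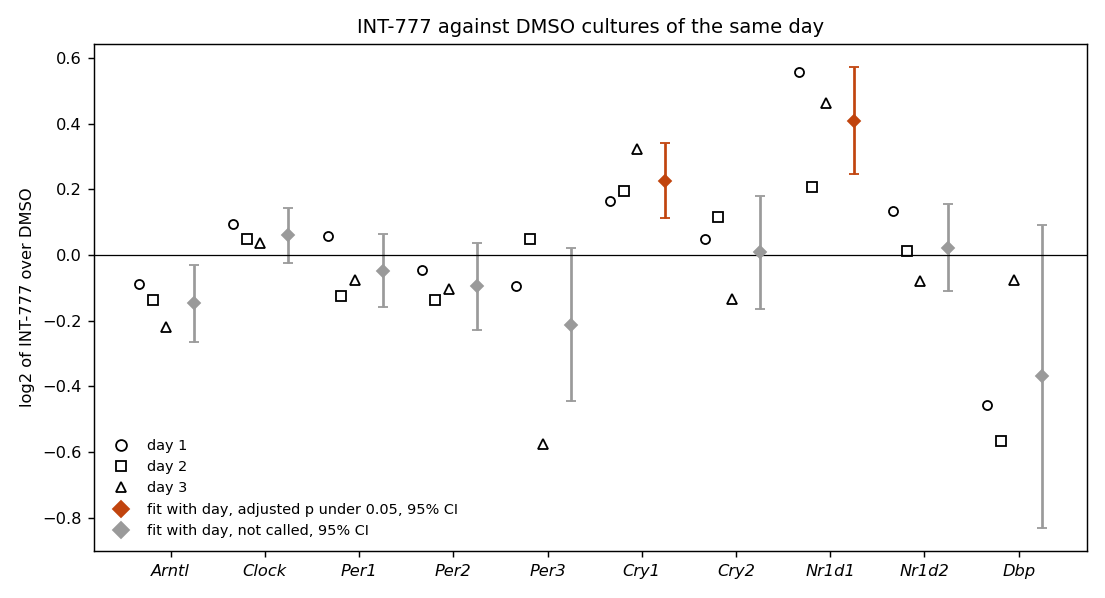
log2 of the INT-777 level over the DMSO level (y axis) of each clock gene on days 1, 2 and 3 (open symbols), with the estimate and 95% interval of the fit that holds the day as a term (diamonds, 3 pairs). Cry1 (0.23) and Nr1d1 (0.41), drawn in orange, passed an adjusted p of 0.05, as did 21.3% of all tested genes. Per3 on day 3 lies at -0.58, away from its other days.

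Whether the days differed in clock state was asked next. No clock gene was called between days 2 and 1, and on day 3 Clock and Per2 stood at 0.90 and 0.86 times their level of days 1 and 2. Of all tested genes 0% were called between days 2 and 1, and 28.3% on day 3 against days 1 and 2. Arntl, Nr1d1 and Dbp were not called between days. The highest over the lowest of the 3 days was 1.05 to 1.28 for the members in INT-777 cultures (median 1.11, all tested genes 1.16). In DMSO cultures it was 1.01 to 1.41 (median 1.17, all tested genes 1.18). The medians of all tested genes include genes with few counts and were not matched to the members' level. Each day gave 1 sampling time and 1 pool of mice, so a phase could not be measured. The p-values for days measure the spread between cultures of 1 sort and not that between sorts.

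On days 2 and 1 the members' log2 differences (day 2 over day 1) lay between -0.30 for Dbp (95% interval -0.86 to 0.26) and 0.09 for Per2. In edgeR 0 members were called, with 0 members at an unadjusted p under 0.05 and 0 by DESeq2, and of all genes 0% were called (154, or 0.963%, had an unadjusted p under 0.05; DESeq2 also called 0). In the test of any difference between the 3 days, 1 member, Clock, was called (edgeR adjusted p = 0.0400), against 20.5% of all genes. DESeq2 called 0 members in that test, where it called 15.3% of all genes; 0 members were also called by edgeR without the INT-777 library of day 2 or without the DMSO library of day 1 or of day 2. For day 3 against days 1 and 2, 2 members were called, Clock and Per2, both lower, against 28.3% of all genes (15.4% higher and 12.8% lower).

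Clock had 137 and 134 CPM on day 3 (INT-777 and DMSO), against 146 to 158 CPM in the 4 libraries of days 1 and 2, without overlap. Its log2 difference was -0.15 ± 0.0421 (edgeR adjusted p = 0.0144). The call was lost without the INT-777 library of day 2 (edgeR adjusted p = 0.0606) and without the DMSO library of day 2 (edgeR adjusted p = 0.130). Per2 had 18.0 and 19.3 CPM on day 3, against 20.8 to 23.5 CPM on days 1 and 2, also without overlap. Its log2 difference was -0.22 ± 0.0665 (edgeR adjusted p = 0.0208), and DESeq2 did not call it (adjusted p = 0.0666). Without the INT-777 library of day 1 the edgeR adjusted p of Per2 was 0.0637, and without the DMSO library of day 2 it was 0.140. Cry2 had 11.5 and 12.6 CPM on day 3, against 9.77 to 10.8 CPM on days 1 and 2, the third member without overlap; its log2 difference of 0.21 had an edgeR adjusted p of 0.0771. Of all tested genes 34.9% did not overlap between day 3 and days 1 and 2. The day 3 libraries, with their higher goblet and enteroendocrine markers, lower stem cell marker sum and lower RNA integrity numbers, come from 1 pool of mice, so day, cell makeup and clock time cannot be told apart. Of the 10 stem cell markers 6 were called lower on day 3 (Lgr5 and Olfm4 among them) and 1 higher.

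The remaining members were not called on day 3. Cry1 stood at -0.13 (log2, day 3 over days 1 and 2, edgeR adjusted p = 0.103) and Per3 at 0.18 (edgeR adjusted p = 0.281). Arntl lay at -0.07 (95% interval -0.19 to 0.06), Nr1d1 at -0.13 (-0.31 to 0.04), Dbp at -0.16 (-0.66 to 0.33), Per1 at 0.00 (-0.12 to 0.12) and Nr1d2 at 0.03 (-0.11 to 0.17). Within a group, the ratio of the CPM of Arntl to that of Nr1d1 varied between days by 1.13-fold with INT-777 and 1.17-fold with DMSO. The ratio of Arntl to Dbp, which rests on few Dbp counts, varied by 1.26-fold with INT-777 and 1.39-fold with DMSO. Without the INT-777 library of day 3, edgeR called 5 members on day 3: Clock and Per2 again, Cry1 (log2 -0.21), Per3 (0.44) and Cry2 (0.32), where 35.1% of all genes were called. In that setting day 3 was 1 library, the DMSO culture, assumed to vary like the others.

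**Figure D3:**
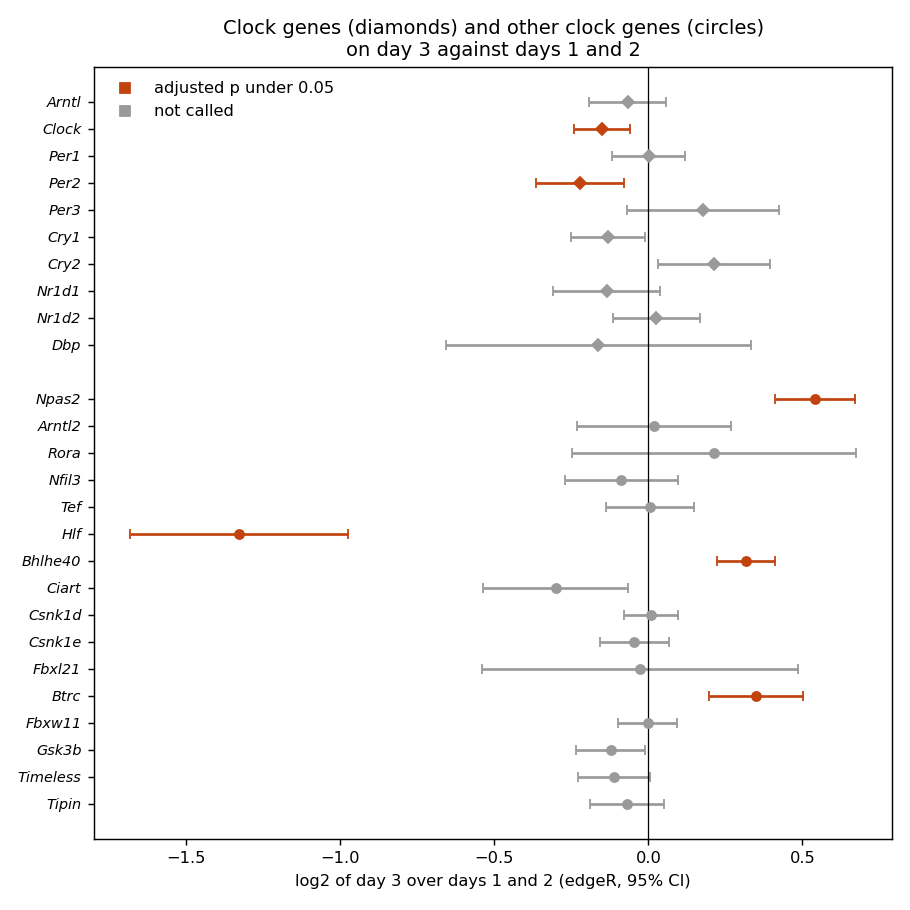
log2 of day 3 over days 1 and 2 (x axis) with 95% intervals for the 10 clock genes (diamonds) and 16 other clock genes (circles), from the edgeR fit with treatment and day; orange marks an adjusted p under 0.05 over all genes. Clock (-0.15) and Per2 (-0.22) are the members called, against 28.3% of all genes. Hlf (-1.33) and Npas2 (0.54) lie farthest from 0.

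Per3 (ENSMUSG00000028957, chr4:151003652-151044665, minus strand), the third Per gene, had 8.31, 8.65 and 7.83 CPM in INT-777 cultures of days 1, 2 and 3, against 8.88, 8.36 and 11.7 CPM in DMSO cultures. The DMSO culture of day 3 was above all 5 other libraries. On day 3 each treatment was 1 library, so the test of whether the INT-777 effect differed on day 3 takes its spread from days 1 and 2 alone and assumes that day 3 varies like them. In that test the INT-777 effect on day 3 was lower by 0.55 on the log2 scale than that on days 1 and 2 (-0.55 ± 0.153, 95% interval -0.85 to -0.25, edgeR adjusted p = 0.0108). Per3 was the 1 member called, against 5.7% of all genes (3.14% higher and 2.56% lower). The fit has 1 residual degree of freedom per gene, and DESeq2 gave Per3 an adjusted p of 1.00. Over the 3 days together the log2 change of Per3 was -0.22 without the block (edgeR adjusted p = 0.465) and -0.21 with it (edgeR adjusted p = 0.196).

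**Figure D4:**
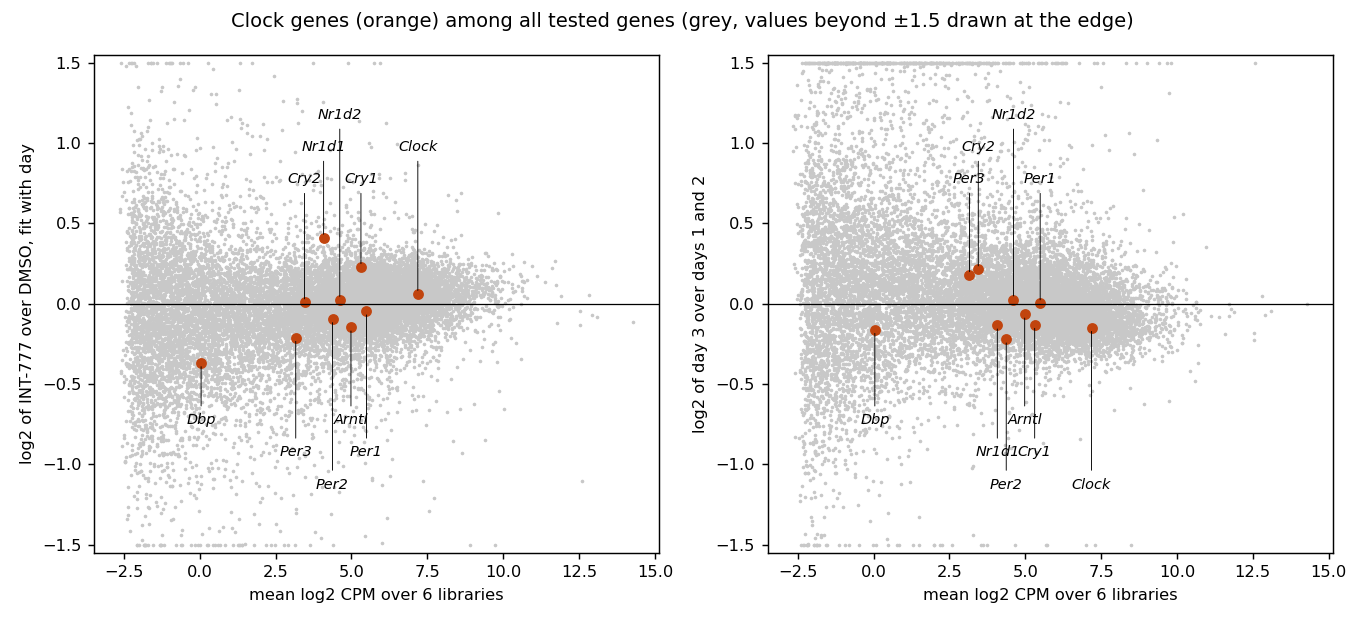
Mean log2 CPM over the 6 libraries (x axis) against the log2 change of all 15998 tested genes (grey): INT-777 over DMSO with the day in the fit (left) and day 3 over days 1 and 2 (right), with the 10 clock genes in orange. The clock genes lie within -0.37 to 0.41 on the left and -0.22 to 0.21 on the right; values beyond the plotted range are drawn at the edge.

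A list of 18 other clock genes was read in the same tests; 16 had enough counts, and Rorb and Bhlhe41 did not. Between treatments, edgeR called 0 of 16 without the block, against 1.45% of all genes; 4 had an unadjusted p under 0.05, against 16.4% of all genes, and DESeq2 called 0, against 4.99%. With the block 4 of 16 were called, against 21.3% of all genes: Npas2, Rora and Gsk3b lower and Timeless higher. Their median log2 change with the block was 0.01. Npas2, which encodes a relative of CLOCK that also pairs with BMAL1, had 19.5, 17.5 and 26.6 CPM with INT-777, against 24.5, 22.1 and 34.2 CPM with DMSO. It was lower by 0.34 on the log2 scale (-0.34 ± 0.0586 with the block, edgeR adjusted p = 0.000732). Without the block Npas2 was not called (edgeR adjusted p = 0.491).

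Rora, whose product activates at the ROR elements that REV-ERB proteins repress, had 1.61, 1.32 and 1.16 CPM with INT-777, against 2.15, 1.50 and 2.76 CPM with DMSO (log2 -0.63 with the block, edgeR adjusted p = 0.0422). The call of Rora was lost without the DMSO library of day 1, without either library of day 3 and with DESeq2 (adjusted p = 0.151); without a library of day 3 its log2 change was -0.32. Gsk3b, a kinase that acts on clock proteins and is the target of the CHIR99021 in the medium, had 179, 168 and 148 CPM with INT-777, against 189, 195 and 190.0 CPM with DMSO. Its log2 change was -0.22 (edgeR adjusted p = 0.00571 with the block), lost without the DMSO library of day 2 (edgeR adjusted p = 0.0557). Timeless, known from Drosophila as a clock gene and in mammals for its work at replication forks, had 40.8, 42.9 and 39.0 CPM with INT-777, against 36.9, 36.9 and 33.9 CPM with DMSO. Its log2 change was 0.19 (edgeR adjusted p = 0.0166 with the block), lost without either library of day 2 and with DESeq2 (adjusted p = 0.0692). Rora, Gsk3b and Timeless were not called without the block (edgeR adjusted p = 0.267, 0.219 and 0.206).

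On day 3 against days 1 and 2, 4 of the 16 were called, 3 higher and 1 lower, against 28.3% of all genes. Npas2 was higher (log2 0.54, edgeR adjusted p = 7.7e-06), with 26.6 and 34.2 CPM on day 3 against 17.5 to 24.5 CPM on days 1 and 2. Bhlhe40, which encodes the E-box repressor DEC1, had 104 and 109 CPM on day 3, against 85.1 to 85.5 CPM on days 1 and 2 (log2 0.32, edgeR adjusted p = 7.05e-05). Btrc, part of the ubiquitin ligase that marks PER proteins for degradation, was higher by a log2 of 0.35 (edgeR adjusted p = 0.00186). Hlf, an activator of the same family as Dbp, had 1.13 and 1.68 CPM on day 3, against 3.18 to 3.71 CPM on days 1 and 2. Its log2 difference was -1.33 ± 0.166 (edgeR adjusted p = 2.42e-05), the largest in size among the 10 members and these 16 genes. Tef, the third member of that family, was not called (log2 0.01, 95% interval -0.14 to 0.15), and the difference between Hlf and Tef was not tested. Ciart, a repressor of CLOCK and BMAL1, stood at -0.30 (edgeR adjusted p = 0.0548). Csnk1d and Csnk1e, kinases that set the stability of PER proteins, lay at 0.01 and -0.05. In the test of whether the INT-777 effect differed on day 3, Gsk3b was the 1 gene of the 16 called (log2 -0.22, edgeR adjusted p = 0.0320), against 5.7% of all genes, with day 3 again 1 library per treatment. DESeq2 did not call it, nor did edgeR with a filter of at least 1 CPM in every library of a group (adjusted p = 0.0583).

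A second list held 20 genes that carry clock output or respond to systemic cues such as glucocorticoids and temperature; 18 were tested. Without the block 1 was called, Klf10, and with it 9 were called, 5 higher and 4 lower, against 1.45% and 21.3% of all genes. On day 3 against days 1 and 2, 7 were called, 2 higher and 5 lower, against 28.3% of all genes. Klf10, a zinc finger factor induced by TGF-beta, had 58.7, 58.1 and 56.4 CPM with INT-777, against 43.3, 43.2 and 37.3 CPM with DMSO. Its log2 change was 0.49 (edgeR adjusted p = 0.0236 without the block and 9.34e-06 with it). Without the block, that call was lost when either library of day 1 or of day 2 was left out (edgeR adjusted p = 0.0997 to 0.172). Tspan4, a tetraspanin, had 43.0, 40.5 and 35.1 CPM with INT-777 and 32.1, 30.5 and 27.1 CPM with DMSO (log2 0.40, edgeR adjusted p = 0.104 without the block and 7.63e-05 with it). Coq10b, a coenzyme Q binding protein, stood at a log2 of 0.22 and Tsc22d3, the glucocorticoid-induced GILZ, at -0.25. Their edgeR adjusted p was 0.134 and 0.181 without the block, and 0.0125 and 0.0240 with it. With the block, the call of Coq10b was lost without either library of day 2. That of Tsc22d3 was lost without the DMSO library of day 2, without either library of day 3 (edgeR adjusted p = 0.0651 to 0.0668) and with DESeq2 (adjusted p = 0.0594).

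Among the output genes that differed most between days, Fkbp5, a glucocorticoid-induced chaperone partner, had 119 and 91.9 CPM on day 3, against 120 to 157 CPM on days 1 and 2 (log2 -0.38, edgeR adjusted p = 9.49e-06). Hspa1b, an inducible heat shock protein, stood at -0.37 on day 3 (edgeR adjusted p = 0.000451), and Tspan4 at -0.23 (edgeR adjusted p = 0.00624). Herpud1, a gene of the endoplasmic reticulum stress response, had 96.6 and 139 CPM on day 3, against 64.8 to 84.3 CPM on days 1 and 2 (log2 0.64, edgeR adjusted p = 1.16e-07). With the block Fkbp5, Hspa1b and Herpud1 were also called between treatments, and without it they were not (edgeR adjusted p = 0.184 to 0.502). Fkbp5 had 157, 151 and 119 CPM in INT-777 cultures of days 1, 2 and 3, against 120, 122 and 91.9 CPM in DMSO cultures (log2 0.35 with the block, edgeR adjusted p = 2.05e-05). Hspa1b had 49.2, 45.8 and 35.3 CPM with INT-777, against 32.1, 34.9 and 27.2 CPM with DMSO (log2 0.46 with the block, edgeR adjusted p = 5.27e-05). Both were higher with INT-777 on each day. Among the named output genes described as glucocorticoid-induced, Fkbp5 was thus higher and Tsc22d3 lower. These were named for their small p-values, so they do not stand for glucocorticoid-induced genes in general. Herpud1 had 64.8, 67.1 and 96.6 CPM with INT-777, against 84.3, 83.1 and 139 CPM with DMSO, lower on each day (log2 -0.41 with the block, edgeR adjusted p = 2.71e-05). The goblet and enteroendocrine marker sums given above were also higher and the stem cell marker sum lower on day 3; their part in these differences was not tested.

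The genes whose pattern over the 6 libraries was most like that of Dbp, by the root mean square difference of centred log2 CPM, were Slc14a1 (0.0886), Gm11695 (0.0972), Cep112 (0.0987) and Dlgap1 (0.102). Those most like Arntl were Ksr1 (0.00879), Parva (0.0123), Sgsh (0.0170) and Lcor (0.0174). Ksr1 had 34.7, 33.1 and 31.2 CPM with INT-777, against 37.2, 36.9 and 36.2 CPM with DMSO. The closeness of these genes rests on 6 libraries that share days and pools. They are the nearest of all genes searched, and Arntl itself varied only 1.18-fold over the libraries. Whether such small distances are unusual was not tested.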

How the data were processed

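RNA of 6 cultures was sequenced as 100-base pairs on a BGISEQ-500, per the labels. The deposited values are raw gene counts (whole numbers of read pairs), which the authors made with STAR (2.73a) on GRCm38/mm10 after FastQC, per the submitters' processing notes; these also name edgeR 3.24.3. No source used here gives the version of the annotation. The unstranded count column was used, since the first strand column held 50.1% to 50.6% of the stranded counts. Pairs on exon bases shared by genes on opposite strands can thus not be assigned. STAR sets pairs that meet more than 1 gene aside as ambiguous (4.35% to 4.535% of pairs) and counts them for neither gene. Counting intervals are not given for single libraries, because the spread between cultures was used instead. Of 54838 gene identifiers 54809 were matched to GENCODE M21 (GRCm38), from which coordinates and exon lengths come; summary rows were left out.

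Counts were tested with edgeR 4.0.16 (R 4.3.3): TMM scaling, filterByExpr by treatment, robust quasi-likelihood F-tests, two-sided, Benjamini-Hochberg adjustment over 15998 genes, threshold 0.05. The fit held the treatment alone; the alternative added the day as a replicate block. The labels state that the number marks the day of a shared sort, so the pairing comes from the labels. Over genes, deviations from the group means of same-day cultures correlated at 0.329, 0.369 and 0.632. Those of days 1 and 2 correlated as much across days (0.336 and 0.364), so the correlations do not tell days 1 and 2 apart; day 3 with days 1 and 2 gave -0.487 to -0.435. In edgeR, the common biological coefficient of variation came to 0.148 without the block and 0.0480 with it. Days were tested in the fit with treatment and day, and the change of the treatment effect on day 3 in a fit with that interaction. The cultures are the replicates; day p-values rest on 2 cultures of 1 pool. Alternatives were RLE scaling, other count filters, DESeq2 1.42.0, RNA integrity as a covariate, and leaving out libraries or days; further alternatives with the block were chosen after the values were seen. The procedure was also run on simulated counts. These held no day effect beyond the changes put in, so they do not show how the fit without the block behaves on these days.

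The members and lists were chosen with earlier results of these data known. Named were all members, the other clock genes (some genes of that list are not reported here), the 4 output genes of smallest p in each of the treatment and day tests, and the 4 genes nearest in pattern to Dbp and to Arntl among genes whose log2 CPM averaged 1 or more. Motifs were searched by exact match in the promoter table.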

Additional observations from a re-analysis of the deposited data

Results flagged for a closer look

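For Per3 the INT-777 effect on day 3 differed from that on days 1 and 2 by a log2 of -0.55 in edgeR's interaction test (adjusted p = 0.0108). On day 3 each treatment was 1 library, so the spread in this test comes from days 1 and 2 alone. The within-day log2 values of INT-777 over DMSO were -0.10 on day 1, 0.05 on day 2 and -0.58 on day 3. RLE scaling and both other count filters gave -0.55 to -0.56 with edgeR adjusted p of 0.0120 to 0.0343, and DESeq2 gave -0.55 with an adjusted p of 1.00. The DMSO culture of day 3, with 542 counts, was above the other 5 libraries; it also had the lowest RNA integrity number (8.7) and the highest goblet marker sum. Their part in the result was not tested.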

How the results depend on the processing

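Without the block, the 232 genes called between treatments became 435 with no low-count filter, 798 in DESeq2, 3415 with the replicate block and 2036 with the RNA integrity number as a covariate, and the members called became 1, 1, 2 and 2. Leaving out 1 library gave 8 to 273 genes and 0 members, with 8 and 9 without the INT-777 library of day 1 and of day 2, and 14 and 19 without the DMSO ones. Leaving out day 1, day 2 or day 3 gave 0, 3 and 4292 genes, with 2 members called without day 3. With the replicate block, DESeq2 called 2274 genes (2 members), leaving out 1 library gave 1479 to 4007 genes with 1 to 2 members, fewest without the DMSO library of day 2, and leaving out day 2 gave 1940 genes with 1 member; these block alternatives were chosen after seeing the data, except those that leave out a day. For any difference between days, the members called were 2 with RLE scaling, 2 with no filter, 0 in DESeq2 and 0 to 5 without 1 library, with 2010 to 4867 genes. For day 3 against days 1 and 2, DESeq2 called 1 member and leaving out 1 library called 0 to 5, with 2541 to 5729 genes, fewest without the DMSO library of day 2. Day 2 against day 1 gave 0 to 4 genes without 1 library. The interaction was called for 540 genes with the stricter filter and for 44 genes and 0 members in DESeq2; it could not be fitted with a library left out, since no residual degree of freedom remains. For the day tests, the main edgeR fit called 20.5% of all genes for any difference and 28.3% for day 3 against days 1 and 2. DESeq2 called 15.3% of all genes for any difference between days. The causes of the changes between settings were not tested.

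Values changed sign, mostly where they were near 0. Per3 and Dbp on day 3, at 0.18 and -0.16 in the main fit, lay farther from 0 than the others. Their sign turned with 1 library left out. Between treatments Cry2 was at -0.00495 with RLE scaling, -0.00587 with no filter, -0.0138 with the stricter filter, -0.00509 in DESeq2, -0.0178 with RNA integrity, -0.0185 without day 1 and -0.0609 without day 2, and from -0.0761 to 0.106 without 1 library. With the replicate block, Cry2 was at -9.6e-05 with RLE scaling, -0.00105 with no filter, -0.0110 without day 1 and -0.0566 without day 2, and from -0.0484 to 0.074 without 1 library. Nr1d2 was at -0.0311 without day 1, -0.0309 with the block, from -0.0149 to 0.0457 without 1 library, and from -0.0334 to 0.0655 with the block. On day 3 Per1 was at -0.00963 with RLE scaling, -0.0130 with no filter and -0.00965 in DESeq2, and without 1 library Per1 ran from -0.0389 to 0.0384, Per3 from -0.123 to 0.438, Nr1d2 from -0.0593 to 0.101 and Dbp from -0.369 to 0.0536. Among single genes, 560 alternative values kept direction and side of the threshold, 34 lost the call, 11 gained one and 33 changed sign.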
